A study of Mus musculus with 6 samples.

Results

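The genes described here are 9 enzymes of glycolysis and lactate formation (Hk2, Gpi1, Pfkl, Aldoa, Tpi1, Pgk1, Eno1, Pkm and Ldha) and Pdk1, a kinase that acts on pyruvate dehydrogenase. They were chosen by symbol. All 10 were found, each in 1 row, in a table of 15095 genes from poly(A) RNA-seq of neural progenitor cells (NPC). The study compared 3 libraries of wild-type NPC with 3 libraries of Setd2-KO NPC, to ask what the methyltransferase SETD2, which deposits H3K36me3, contributes to neuronal gene expression. Both groups came from the mouse embryonic stem cell line HA36CB1 and its knock-out derivative, so each genotype rests on cell lines rather than on animals. In both groups the cells were grown as aggregates for 4 days without and 4 days with 5 uM retinoic acid and were collected at day 8. The labels' cell type entry names the stem cells of origin, and the titles name NPC. The table held no value per library. Its only level is edgeR's average log2 CPM over the libraries (CPM being the reads of a gene per 1000000 reads of a library), which mixes both genotypes and has no SD and no n of its own. The levels below are therefore a description of the NPC of both genotypes together, no genotype difference was tested here, and whether neighbours in an order differ beyond the spread between libraries cannot be said.

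Glycolysis splits glucose into pyruvate in the cytosol and yields ATP and NADH on the way. Cells that proliferate, neural progenitors among them, are known to run it at a high rate and to reduce much of the pyruvate to lactate, which regenerates NAD+. Pyruvate dehydrogenase kinases phosphorylate and thereby inhibit the pyruvate dehydrogenase complex, the entry of pyruvate into mitochondrial oxidation. Many genes of the pathway are known targets of the hypoxia-inducible factor HIF-1, which binds DNA at sites with the core ACGTG or GCGTG.

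The core ACGTG was looked for on both strands of the RefSeq promoters, each from 250 bases before to 50 bases after a gene start (build GRCm38.p6). Overlapping matches, as in the palindrome CACGTG, were counted as 1 site. The 10 genes had 17 such promoters, of which 6 held at least 1 site and 4 held at least 2. Of all 32851 promoters, 19.6% held at least 1 site and 2.69% at least 2. Of the 10 genes, 5 (Hk2, Aldoa, Pgk1, Pkm and Ldha) had a promoter with a site, against 21.8% of all genes. The promoters of Gpi1, Pfkl, Tpi1, Eno1 and Pdk1 had none. That split rests on the narrower core: with GCGTG counted as well, 12 of the 17 promoters (70.6%) held a site, against 43.8% of all promoters, and Gpi1 and Tpi1 alone among the 10 genes had none. Of all 27025 genes, 12628 had a promoter with a site on this wider count. All genes here are those with a RefSeq promoter, whether or not they had a level in these cells. The shares were not taken over the 15095 genes with a level alone. The 17 promoters are not independent, since those of Aldoa with a site overlap each other, and so do some of Eno1. A match of 5 letters is neither a bound site nor a cause of any level. The 3 promoters with at least 2 sites before the start are shown for their 250 bases up to the start, with the sites in capitals.
Hk2, chr6:82774455-82774704, minus strand: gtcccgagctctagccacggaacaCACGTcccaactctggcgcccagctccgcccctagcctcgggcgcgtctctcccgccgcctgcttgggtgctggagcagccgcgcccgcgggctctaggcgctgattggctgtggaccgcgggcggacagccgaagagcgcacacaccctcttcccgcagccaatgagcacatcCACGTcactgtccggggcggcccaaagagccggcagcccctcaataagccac
Pgk1, chrX:106186850-106187099, plus strand: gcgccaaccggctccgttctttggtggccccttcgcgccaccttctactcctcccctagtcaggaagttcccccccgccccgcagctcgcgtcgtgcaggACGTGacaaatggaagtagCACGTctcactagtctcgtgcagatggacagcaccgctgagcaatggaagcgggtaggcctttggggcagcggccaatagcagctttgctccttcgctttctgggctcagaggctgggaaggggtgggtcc
Ldha, chr7:46845554-46845803, plus strand: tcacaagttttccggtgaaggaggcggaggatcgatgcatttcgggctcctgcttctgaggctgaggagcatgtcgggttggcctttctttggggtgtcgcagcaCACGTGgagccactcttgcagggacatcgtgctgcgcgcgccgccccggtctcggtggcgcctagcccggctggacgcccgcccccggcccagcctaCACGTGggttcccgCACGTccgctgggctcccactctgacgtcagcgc

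In Ldha, the sites began 145, 48 and 34 bases before the start, and the first 2 of them were the palindrome CACGTG. Of the 17 promoters this was the only 1 with the palindrome (5.88%), against 7.15% of all promoters. In Pgk1 the sites lay close together, beginning 150 and 131 bases before the start. In Hk2 they lay further apart, at 226 and 52 bases.

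Most of the glycolytic enzymes were among the genes with the largest shares of reads in these cells. Log2 CPM is not divided by transcript length, so an order of genes in it is an order of read shares and not of molecules. The 10 genes had a median average level of 8.73 log2 CPM, against 4.57 for all 15095 genes, and each was above that overall median. Of the 10, 7 were in the highest 5% of genes and 2 (Pkm and Eno1) in the highest 1%. Together they took 0.562% of the summed CPM, and Pkm alone made up 35.1% of their sum. The lowest log2 CPM were those of Hk2 and Pfkl, which catalyse early steps of the pathway, and of the regulatory kinase Pdk1.

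**Figure D1:**
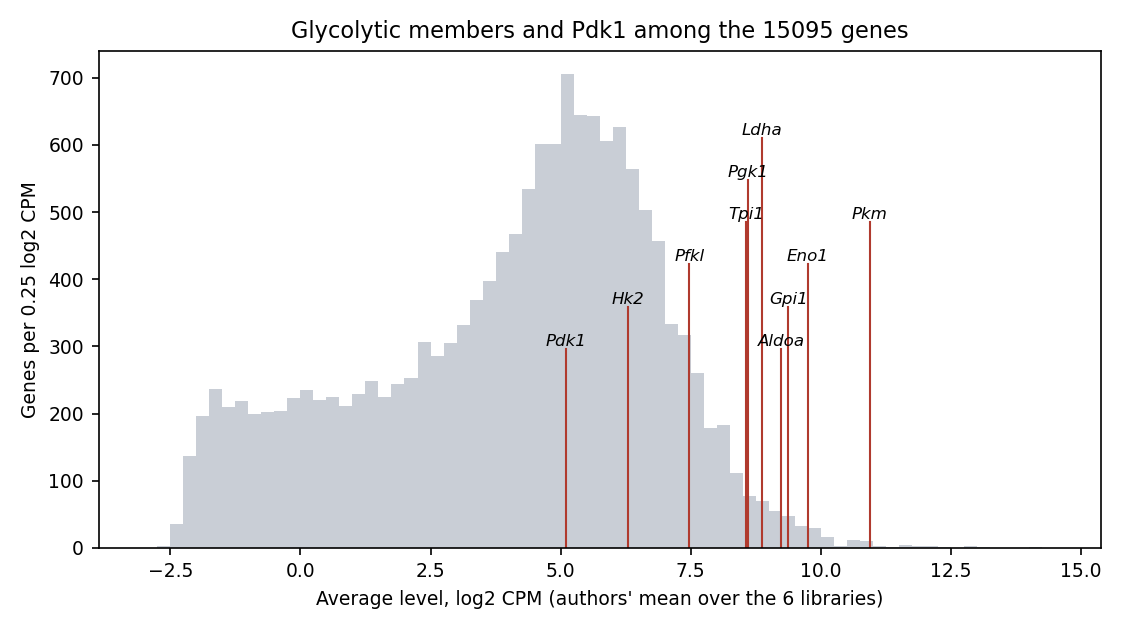
Histogram of the average log2 CPM of all 15095 genes (x axis, bins of 0.25; y axis, number of genes), with a red line at the level of each of the 10 genes; the heights of the lines carry no value. Pdk1 at 5.10 and Hk2 at 6.29 lie within the bulk of genes, and the other members at 7.47 to 10.94 lie in its upper tail.

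Hk2 (ENSMUSG00000000628), a hexokinase that traps glucose in the cell as glucose 6-phosphate, had an average level of 6.29 log2 CPM, or 78.2 CPM, and ranked at 3195 of 15095 genes. In GRCm39 it lies on chromosome 6 from 82699740 to 82751469 on the minus strand, and its canonical transcript has 18 exons and 7796 bases. Gpi1 (ENSMUSG00000036427), which converts glucose 6-phosphate to fructose 6-phosphate, stood at 9.37 log2 CPM (662 CPM, rank 152). It lies on chromosome 7 from 33900755 to 33929780, minus strand, with 18 exons. Pfkl (ENSMUSG00000020277), the liver-type subunit of phosphofructokinase, which catalyses the main regulated step of the pathway, stood at 7.47 log2 CPM (178 CPM, rank 1129). It lies on chromosome 10 from 77818084 to 77845922, minus strand, with 22 exons. Per kb of canonical transcript, Gpi1 at 228 CPM per kb was above the hexokinase Hk2 at 10.03 and the phosphofructokinase Pfkl at 43.4, between which it acts.

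Aldoa (ENSMUSG00000030695), which cleaves fructose 1,6-bisphosphate into triose phosphates, had an average of 9.24 log2 CPM (603 CPM, rank 173). It lies on chromosome 7 from 126393822 to 126399923, minus strand, and its canonical transcript has 9 exons. Tpi1 (ENSMUSG00000023456), which interconverts the triose phosphates, stood at 8.56 log2 CPM (378 CPM, rank 354) and lies on chromosome 6 from 124787549 to 124791273, minus strand, with 7 exons. Pgk1 (ENSMUSG00000062070), which makes ATP from 1,3-bisphosphoglycerate, stood at 8.59 log2 CPM (385 CPM, rank 342) and lies on chromosome X from 105230706 to 105247305, plus strand, with 11 exons.

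Eno1 (ENSMUSG00000063524), which forms phosphoenolpyruvate, had an average of 9.75 log2 CPM (863 CPM, rank 87) and lies on chromosome 4 from 150321073 to 150337027, plus strand, with 12 exons. Pkm (ENSMUSG00000032294), the pyruvate kinase of most tissues, had the highest log2 CPM of the 10, at 10.94 (1970 CPM, rank 18). It lies on chromosome 9 from 59563364 to 59586663, plus strand, with 11 exons in its canonical transcript. Its splice forms PKM1 and PKM2, which use alternative exons, share this 1 row and cannot be told apart in it. Ldha (ENSMUSG00000063229), which reduces pyruvate to lactate, stood at 8.87 log2 CPM (468 CPM, rank 261) and lies on chromosome 7 from 46490899 to 46505061, plus strand, with 8 exons. Pdk1 (ENSMUSG00000006494) had the lowest log2 CPM of the 10, at 5.10 (34.3 CPM, rank 6214) and lies on chromosome 2 from 71703488 to 71734202, plus strand, with 11 exons. All 10 genes are annotated as protein-coding.

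Longer transcripts give more fragments at the same number of molecules, so levels were compared between genes per kb of canonical transcript (GENCODE vM39), with the union of exons and the coding length as other measures. On that scale Pkm led with 805 CPM per kb, followed by Aldoa with 399, Eno1 with 376, Ldha with 294, Tpi1 with 235, Gpi1 with 228 and Pgk1 with 211 CPM per kb. A gap of 4.87-fold in CPM per kb separated Pgk1 from Pfkl at 43.4, and a further 4.32-fold separated Pfkl from Hk2 at 10.03 CPM per kb. The gap between Pfkl and Hk2 was 1.46-fold with the exon union and 2.67-fold with the coding length, and that between Pgk1 and Pfkl was 12.4-fold and 4.05-fold. Pdk1 was the lowest at 6.52 CPM per kb. Pkm was 80.2 times Hk2 per kb of canonical transcript, but 15.5 times with the exon union and 43.5 times with the coding length. It was 123 times Pdk1 per kb of canonical transcript, 37.7 times with the exon union and 46.9 times with the coding length. In CPM per kb, Aldoa was 1.06 times Eno1, Tpi1 was 1.03 times Gpi1 and Gpi1 was 1.08 times Pgk1.

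The order of the 3 lowest genes (Pfkl, then Hk2, then Pdk1) was the same with the union of all exons and with the coding length. The order of the upper 7 was not: with the exon union Pgk1 led with 172 CPM per kb and Pkm followed with 147, since the exon union of Pkm spans 13417 bases and that of Pgk1 2244. With the coding length Pkm led again with 1236 CPM per kb, and Hk2 and Pdk1 came within 1.08-fold of each other at 28.4 and 26.4.

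**Figure D2:**
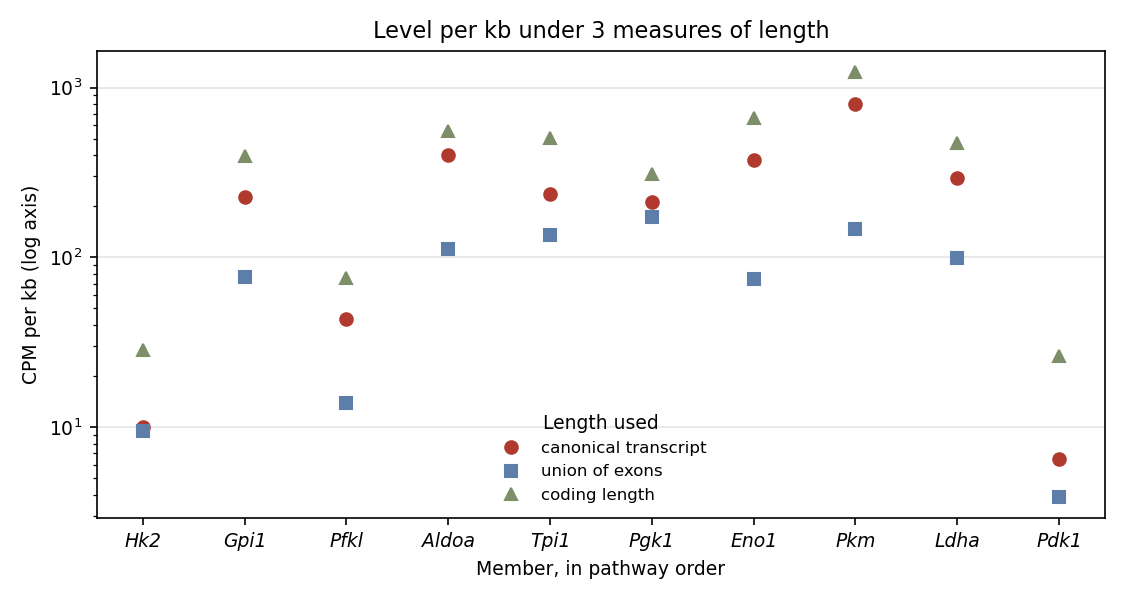
Average level in CPM per kb (y axis, log scale) of each of the 10 genes in pathway order (x axis), divided by the canonical transcript (circles), the union of exons (squares) or the coding length (triangles); each point is 1 value pooled over the libraries, with no error bar. Pfkl, Hk2 and Pdk1 are the 3 lowest under each measure, whereas Pkm leads with 2 of the 3.

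Within an enzymatic step, the isozymes fell into a pattern of steps carried by a single gene and steps divided among several. All shares below are of the summed CPM per kb of canonical transcript over the genes of the step that are named here. Aldoa made up 99.1% of the aldolase sum, with Aldoc, the brain-type aldolase, at 0.944%. Pgk1 and Pkm were the sole genes of their steps with a value, and the testis-type Pgk2 and the liver and red-cell pyruvate kinase Pklr were not analysed here. Ldha made up 75.9% of the lactate dehydrogenases and was 3.15 times Ldhb, the form common in heart, at 24.1%. Ldhd, which acts on D-lactate, made up 0.0493%, and the testis-type Ldhc was not analysed here.

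The hexokinase step was the most evenly divided. Hk1, the housekeeping hexokinase, made up 33.9%, Hk2 29.5% and Hk3 26.9%, with Hkdc1 at 9.70%. Hk2 was below Hk1 per kb of canonical transcript but above it with the exon union (40.4% against 24.0%) and without division by length (46.4% against 29.2%). Pfkl made up 62.7% of the phosphofructokinases, 2.14 times the muscle-type Pfkm at 29.2%, and the platelet-type Pfkp made up 8.10%.

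Pdk1 was not the highest gene of its own family on any scale tried. Pdk3 made up 64.8% of the pyruvate dehydrogenase kinases and was 4.22 times Pdk1 per kb of canonical transcript, but 2.11 times with the exon union, 2.06 times with the coding length and 1.97 times without division by length. Pdk2 made up 19.5%, Pdk1 15.4% and Pdk4 0.404%. Pdk3 was the highest of the 4 on each of the scales tried, but the places of Pdk1 and Pdk2 changed with the scale. With the exon union Pdk1 made up 26.9% and Pdk2 15.3%, and without division by length 28.2% and 15.7%. Per kb of coding length Pdk1 stood at 26.4 and Pdk2 at 15.6 CPM per kb.

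**Figure D3:**
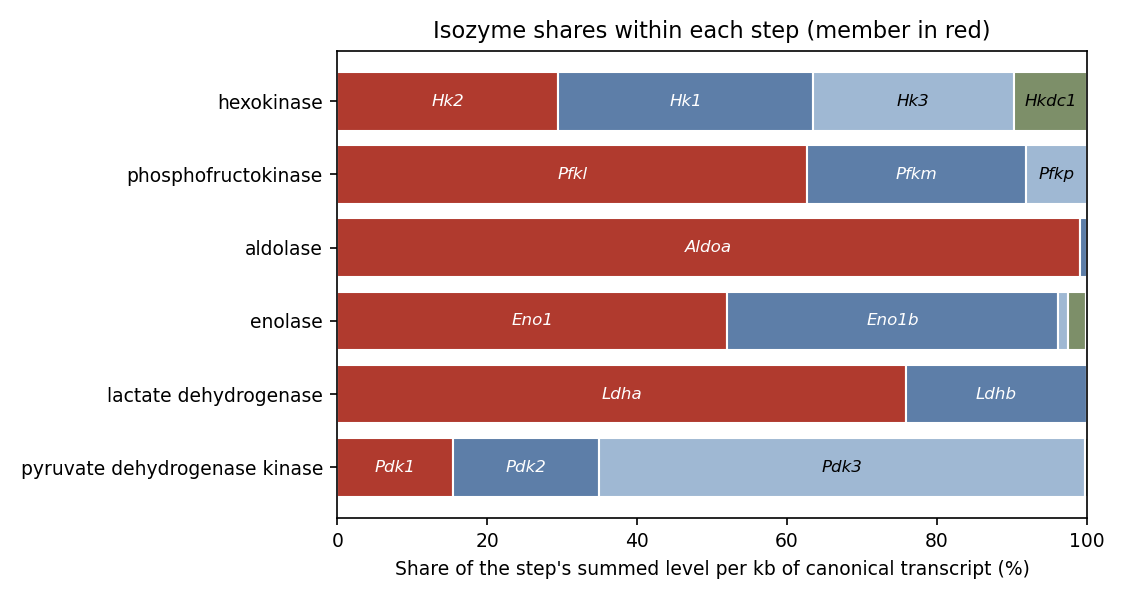
Share of each isozyme (x axis, percent of the step's summed CPM per kb of canonical transcript) in the 6 steps with more than 1 isozyme analysed (rows); the member gene is in red and shares under 5% are drawn without a name. Aldoa fills 99.1% of its bar, Hk2 29.5% and Pdk1 15.4%.

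Among the enolases, Eno1 made up 52.0% and Eno1b, a separate locus whose canonical transcript has 2 exons, made up 44.2%, while the neuronal enolase Eno2 made up 1.35%, the muscle enolase Eno3 2.38% and Eno4 0.0503%. These values for Eno1 and Eno1b are uncertain, because 51.5% of the 100-base windows (shorter than a read) of the canonical Eno1 transcript occurred without a mismatch in a transcript of Eno1b, so that many reads could have come from either. With Eno1b added to Eno1, the pair made up 96.2% of the step. With the exon union, Eno1 fell to 19.2% of the step and Eno1b rose to 78.2%.

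Other members also share sequence with other annotated genes. For Aldoa, 85.3% of the windows occurred in Gm57854, a protein-coding model that overlaps Aldoa on the same strand (chromosome 7, 126393858 to 126408507). Both models lie over the same DNA, and no other gene held a 100-base window of Aldoa. These windows therefore show no copy of Aldoa at another locus. For Pgk1, 67.0% occurred in the processed pseudogene Pgk1-rs7 on chromosome 12. Neither partner had a level used here, and Gm57854 has a higher Ensembl gene number than any gene of the table, whose identifiers come from an older annotation than vM39. The share of windows found in any other gene was 9.75% for Pkm, 4.89% for Gpi1, 1.48% for Ldha and 0.796% for Tpi1, and no window of this length from Hk2, Pfkl or Pdk1 occurred in another gene. How reads that match several loci or overlapping genes were assigned is not known for this table, and its part in these levels was not tested.

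The steps of the pathway on either side of Pgk1, which have no gene among the 10, also had high levels. Gapdh, which oxidises glyceraldehyde 3-phosphate, stood at 11.65 log2 CPM (3208 CPM, rank 12) and was 2.81 times Pkm per kb of canonical transcript. Pgam1, which moves the phosphate of 3-phosphoglycerate, stood at 8.87 log2 CPM (467 CPM). Both share sequence with pseudogenes, over 78.0% of the 100-base windows in Gapdh and 39.2% in Pgam1. Their tissue-restricted forms Gapdhs and Pgam2 were not analysed here.

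Of 9 listed genes of glucose and lactate transport, 7 were analysed. Slc2a1, which encodes the glucose transporter GLUT1, was the highest at 9.86 log2 CPM and stood at 20.9 times Hk2 per kb of canonical transcript. Slc2a3 (GLUT3, the neuronal glucose transporter) had 7.15 log2 CPM and Slc16a1 (MCT1, a lactate carrier) 6.46 log2 CPM. The lowest was Slc16a7 (MCT2) at -1.29 log2 CPM.

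The pyruvate dehydrogenase complex, the target of Pdk1, was listed with its phosphatases and the pyruvate carriers, and all 10 of these genes had a value. The 5 subunits of the complex had 5.07 to 6.93 log2 CPM, with a median of 6.45, and the 5 phosphatase and carrier genes 3.32 to 4.31 log2 CPM, with a median of 3.74. Pdha1, the subunit that the kinases phosphorylate, led with 6.93 log2 CPM, followed by Dld with 6.66 and Pdhb with 6.45. The phosphatase Pdp1, which reverses the phosphorylation, was the lowest with 3.32 log2 CPM. These orders are of read shares, and per kb of canonical transcript the groups overlapped. The carriers Mpc1 (11.8 CPM per kb) and Mpc2 (12.5) were above Pdhx (7.68) and Dlat (9.32) but below Pdha1 (42.5), Pdhb (57.6) and Dld (22.6). Pdhb thus led on that scale, and Pdpr at 1.57 CPM per kb was below Pdp1 at 2.13. None of the 10 was in the highest 5% of genes, where Gpi1, Aldoa, Tpi1, Pgk1, Eno1, Pkm and Ldha were.

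All 14 listed regulators of flux and hypoxia factors had a value, with a median of 4.23 log2 CPM. The highest were the HIF prolyl hydroxylase Egln1 with 7.39 log2 CPM, Hif1a with 6.87 and its partner Arnt with 5.85, and the lowest was the fructose bisphosphatase Fbp2 with -2.01. Of 13 genes of pathways that branch from glycolysis, 12 were analysed. Tkt, the transketolase of the pentose phosphate pathway, led with 8.82 log2 CPM, followed by Phgdh, which opens serine synthesis, with 7.57 and Pgd with 7.28. The lowest was Gpd1 with 1.49 log2 CPM. This order too is of read shares. Per kb of canonical transcript, Pgls led the branching genes with 145 CPM per kb, followed by Tkt with 140 and Phgdh with 100. On that scale Taldo1 at 83.2 was above Pgd at 45.3.

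**Figure D4:**
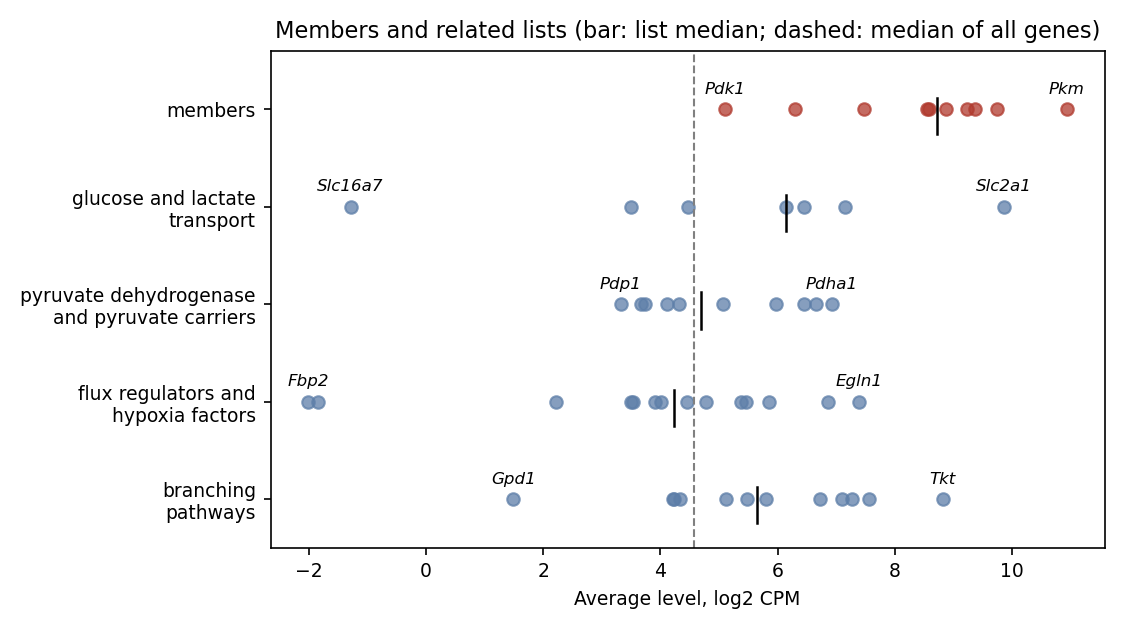
Average log2 CPM (x axis) of the genes of 5 lists in the table (rows), each point 1 gene, with a bar at the list median and a dashed line at 4.57, the median of all genes; the highest and the lowest gene of each list are named. The 10 members (red) lie between 5.10 and 10.94, with a median of 8.73, against list medians of 4.23 to 6.14 for the others.

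As a check of the labelled cells, 8 of 9 neural progenitor markers had values of 3.56 to 9.82 log2 CPM. Vim was the highest and Fabp7 the lowest, and Sox1 was not analysed here. All 8 neuron markers had values of 4.75 to 9.75 log2 CPM. Pluripotency markers reached at most 3.71, endoderm markers 4.83, and mesoderm and muscle markers 3.50 log2 CPM. Of the 7 endoderm markers, 2 (Sox17 at 4.83 and Gata4 at 4.70) were above the median of all genes, 4.57. No pluripotency marker and no mesoderm or muscle marker was. The averages thus include neuronal transcripts, and some endoderm marker transcripts, beside those of progenitors. In a bulk average fewer cells and less RNA per cell cannot be told apart. Setd2 itself had an average of 6.88 log2 CPM over both genotypes, which cannot serve as a check of the knock-out.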

How the data were processed

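Poly(A) RNA from 3 wild-type and 3 Setd2-KO NPC samples was sequenced as single-end reads. Per the submitters' processing notes, reads went through Trim Galore and STAR (mm9, NCBIM37) and then edgeR, while the study's methods name GRCm39, Salmon and GENCODE M35. Of the 15095 gene identifiers, 15066 were found in GENCODE vM39, 15053 of them with a lower version number. The highest Ensembl gene number in the table was 93358, which 60.6% of the vM39 genes exceed, so its identifiers come from an older annotation, and lengths and copies from vM39 may differ from those its reads were counted on. The deposited table holds the authors' average log2 CPM per gene. It also holds 4 columns of the authors' own comparison of the genotypes (shrunken and unshrunken log fold change, p-value and false discovery rate), which were not used. It has no columns per library, so depth per library is unknown and no test, mean or SD was possible.

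Average log2 CPM were ranked over all genes and raised to the power of 2 for CPM, which summed to 1000577. CPM were divided by kb of canonical transcript, exon union or coding length (GRCm39, GENCODE vM39), and isozyme shares were taken per step, over the genes named. Some planned genes are not reported here and enter no share. Exact 100-base windows of canonical transcripts were searched in all other genes' transcripts. Promoters were RefSeq's (GRCm38.p6), and all 10 genes matched. The steps were tested on simulated sequences and values. Python 3.11.15 and pandas 2.3.3 were used. All 10 genes and the isozymes analysed are named, and of other lists the 3 highest and the 1 lowest in log2 CPM. Some further genes of the pyruvate dehydrogenase, regulator and branching lists are named where the order per kb of canonical transcript differed. The genes and lists were chosen with earlier results of these data known.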

Additional observations from a re-analysis of the deposited data

How the results depend on the processing

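No paired analysis was possible because the table holds no value per library, and for the same reason the planned fits of the genotype difference (with a replicate block, without each replicate, with DESeq2 or with another pseudocount) were not run. Ranked among protein-coding genes, the median percentile of the 10 genes and the number in the highest 5% stayed within 1.5-fold. This setting could hardly have moved them, since 14612 of the 15095 genes are protein-coding. Per kb of exon union, 8 of the 10 levels moved past 1.5-fold: Gpi1 to 77.1, Pfkl to 13.8, Aldoa to 112, Tpi1 to 136, Eno1 to 75.1, Pkm to 147, Ldha to 98.7 and Pdk1 to 3.90 CPM per kb. Per kb of coding length, 8 of the 10 did: Hk2 to 28.4, Gpi1 to 396, Pfkl to 76.0, Tpi1 to 506, Eno1 to 663, Pkm to 1236, Ldha to 469 and Pdk1 to 26.4 CPM per kb. The divisor, annotated length, is what changes here. Of the shares within a step, Hk2 moved to 46.4% and Pdk1 to 28.2% without division by length, Eno1 to 19.2% and Pdk1 to 26.9% with the exon union, and Eno1 to 96.2% with Eno1b added. The shares of Pfkl, Aldoa and Ldha stayed within 1.5-fold. With exact windows of 50 bases, chosen after seeing the data, the share of windows found in another gene rose to 34.2% for Pkm, 19.8% for Gpi1, 19.1% for Ldha and 7.51% for Tpi1. With GCGTG counted as a core, also chosen after seeing the data, 12 in place of 6 promoters held a site. Depth per library is unknown, so no precision can be given for any level.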
